A study of Mus musculus with 48 samples.

Results

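Klf6, Klf10, Ier2, Egr1, Fos, Jun, Junb, Jund, Btg2 and Bhlhe40 are immediate early genes, and their nascent RNA was followed in mouse embryonic stem cells after treatments aimed at 2 chromatin remodellers. The 10 genes were taken by name, out of the 55376 genes of the count matrix. The cells were TCF2.2, an embryonic stem cell line labelled C57BL/6 and kept in serum-free 2i medium. Before harvest they took up 500 µM 4-thiouridine for 5 min, so that the reads come from RNA made in that short window, and ERCC spike-in RNA was added in proportion to cell number. The groups had 2 libraries each. They were cells given BRM014, which blocks BRG1 and BRM, the ATPases of SWI/SNF, at 10 µM for 3 h, their controls given DMSO for 3 h, cells transduced with a lentivirus carrying an shRNA against Chd4, the ATPase of the NuRD complex, and their controls with a scrambled shRNA lentivirus. Both shRNA groups spent 24 h in puromycin at 1.5 µg/mL. The inhibitor reaches both ATPases at once. The cells are 1 line, and nothing says that the libraries of a group came from separate cultures, so p-values measure the spread between these libraries only. The series also holds 40 chromatin immunoprecipitation samples, which are not analysed here.

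Immediate early genes are switched on within minutes of a signal from existing transcription factors, with no new protein needed first. Growth factors reach Fos and Egr1 largely through the MEK and ERK kinases and the factors SRF and ELK1, and 2i medium contains an inhibitor of MEK. Jun proteins (c-Jun, JunB, JunD) pair with Fos or ATF proteins into the AP-1 dimer. Klf6 and Klf10 encode zinc finger factors that bind GC-rich promoter sequence, Egr1 encodes another zinc finger factor, and Bhlhe40 (DEC1) encodes a basic helix-loop-helix repressor that binds E-boxes and damps the circadian clock. Ier2 encodes a small nuclear protein induced by growth factors, and Btg2 an antiproliferative protein that binds the CCR4-NOT deadenylase.

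Total gene counts ran between 12977098 and 14582377 in the BRM014, 16813866 and 17128981 in the DMSO, 6982354 and 7461362 in the Chd4 shRNA and 11298835 and 12026026 in the scrambled libraries. Reads on 1435 genes for olfactory and vomeronasal receptors, of no use to stem cells, served as background. Scaled to all exons, this background made up 1.68% and 2.38% of gene counts in the BRM014 libraries, 2.02% and 2.08% in the DMSO, 11.9% and 13.6% in the libraries labelled Chd4 shRNA, and 1.45% and 2.14% in the scrambled. Chd4 itself was counted 730 and 760 times in the libraries labelled Chd4 shRNA against 806 and 618 times in the scrambled, and relative to other expressed genes it was higher there (log2 fold change 0.57 ± 0.16, SE, edgeR adjusted p 0.00532). An shRNA acts on mature messenger RNA, which a labelling window of 5 min does not measure. Whether Chd4 was depleted can thus not be read from these counts. A direction given below for these libraries is that of the libraries so labelled. All 11 embryonic stem cell markers were expressed, with summed CPM (counts scaled to a common library size) of 3157 to 3312 with BRM014 and 3116 to 3625 with DMSO, and of 1879 to 1948 in the libraries labelled Chd4 shRNA against 3097 to 3260 in the scrambled. None of 10 fibroblast markers passed the expression filter below, and their sums were 9.59 to 12.4 CPM with BRM014 against 13.6 to 14.9 with DMSO, and 102 to 111 in the libraries labelled Chd4 shRNA against 13.9 to 16.7 in the scrambled. In counts these were 635 to 678 in the libraries labelled Chd4 shRNA, where background alone would give 465 to 495. Of the other lineage markers 2 of 5 trophoblast, 1 of 4 ectoderm, 0 of 6 endoderm and 0 of 5 mesoderm genes were expressed. Trophoblast markers summed to 36.5 to 40.3 CPM in the libraries labelled Chd4 shRNA (224 to 250 counts, background 105 to 112) against 12.1 to 14.8 CPM in the scrambled, and ectoderm markers to 63.9 to 71.2 CPM against 39.4 to 42 CPM. Background made up a larger part of the ectoderm sums in the libraries labelled Chd4 shRNA than in the scrambled. The higher ectoderm CPM there thus does not show that ectoderm transcripts rose. In such bulk RNA, fewer cells making a transcript and less of it per cell cannot be told apart.

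Nascent RNA of the 10 genes spanned the range from background to well-transcribed genes. Expressed here means a mean count over the 8 libraries at least 10 times the background for the gene's exon length, which held for 8272 genes and for 7 of the 10. Ier2 (mm10, chr8:84661331-84662854) stood at 88.5 times background, Jund (chr8:70698949-70700616) at 75.6, Btg2 (chr1:134075170-134079120) at 44.1, Klf10 (chr15:38291463-38300706) at 31.1, Bhlhe40 (chr6:108660629-108666925) at 18.4, Junb (chr8:84976910-84978718) at 17.5 and Klf6 (chr13:5861482-5870394) at 14.1. Jun (chr4:95049034-95052222) reached 5.01 times, so its values come from a fit over the 17664 genes at least 3 times above background. Fos (chr12:85473890-85477273) reached 2.77 times and Egr1 (chr18:34859823-34864984) 0.909 times, and both are given by their counts.

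Egr1 was counted 7 and 10 times with BRM014 against 6 and 16 times with DMSO, and 26 and 32 times in the libraries labelled Chd4 shRNA against 10 and 2 in the scrambled. Background alone would give its exons 7.44 and 11.9 counts with BRM014, 11.8 and 11.9 with DMSO, 30.4 and 32.3 in the libraries labelled Chd4 shRNA, and 5.94 and 8.23 in the scrambled. Egr1 was therefore not detectable above background in any group at this depth. Fos was counted 23 and 48 times with BRM014, at 5.89 and 7.72 times background, against 19 times in each DMSO library, at 3.07 and 3.04 times. Its 17 and 28 reads in the libraries labelled Chd4 shRNA were 1.07 and 1.65 times background, against 5 and 15 reads in the scrambled, at 1.61 and 3.48 times. Both BRM014 libraries were above both DMSO libraries for Fos, while the libraries labelled Chd4 shRNA and scrambled r1 were near background. Scrambled r3 stood at 3.48 times background, on 15 reads.

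**Figure D1:**
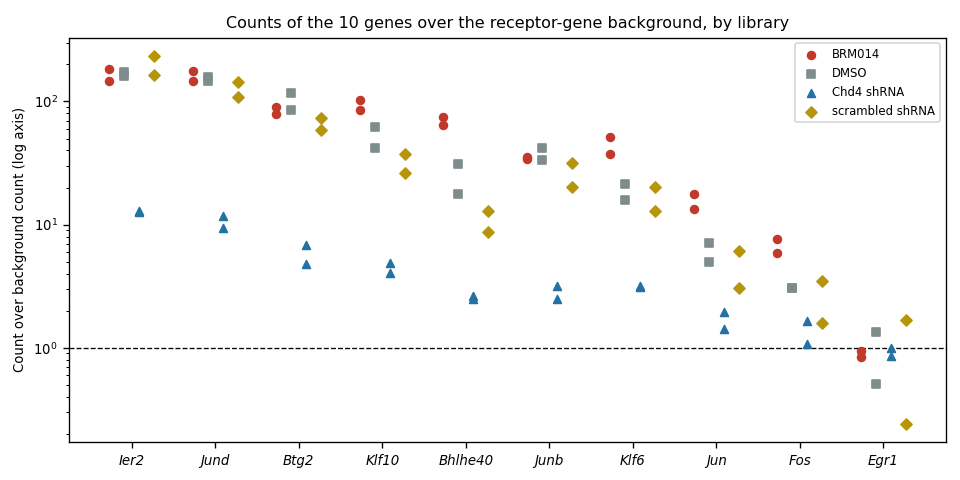
Count of each of the 10 genes over its background count in each library, on a log axis, with genes ordered by their mean. The libraries labelled Chd4 shRNA (triangles) lie lowest for all genes from Ier2 to Jun, and Egr1 lies around the dashed line at 1, where a count equals its background.

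Per kb of exon, Ier2 and Jund stood at the top and Jun, Fos and Egr1 at the bottom in all 4 groups. With DMSO the level was 26.2 ± 0.309 CPM per kb (SD, n = 2) for Ier2, 23.7 ± 0.122 for Jund, 15.7 ± 2.58 for Btg2, 8.04 ± 1.75 for Klf10, 5.88 ± 0.61 for Junb, 3.78 ± 1.28 for Bhlhe40, 2.91 ± 0.436 for Klf6 and 0.941 ± 0.174 for Jun. Bhlhe40 and Klf6 overlapped there, while the other neighbours in that order were apart in both libraries. With BRM014 Ier2 (23.2 ± 1.51 CPM per kb) and Jund (23.0 ± 0.874) overlapped at the top, Klf10 (13.3 ± 0.462) stood before Btg2 (12 ± 0.0325), and Bhlhe40 (9.79 ± 0.195) and Klf6 (6.24 ± 0.864) stood before Junb (4.92 ± 0.278). The libraries labelled Chd4 shRNA had Ier2 at 14.5 ± 0.956, Jund at 11.8 ± 1.27, Btg2 at 6.52 ± 1.24 and Klf10 at 5.04 ± 0.394 CPM per kb. Against these, the scrambled libraries had Ier2 at 35.0 ± 0.439, Jund at 22.1 ± 0.749, Btg2 at 11.7 ± 0.865 and Klf10 at 5.57 ± 0.0712 CPM per kb. Among all expressed genes Ier2 lay at percentile 77 with BRM014, 78.7 with DMSO, 71.3 in the libraries labelled Chd4 shRNA and 82.6 in the scrambled. Bhlhe40 lay at percentile 58.7 with BRM014 and 21.5 with DMSO, and at 3.99 in the libraries labelled Chd4 shRNA and 0.75 in the scrambled. The exon length given for Junb, 2301 bases, is longer than its span of 1809 bases, as for 59 of 54040 genes in the matrix, so its level per kb is uncertain.

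With BRM014 the nascent RNA of Bhlhe40, Klf6 and Klf10 rose, as did Jun in the wider set of genes, while Ier2, Junb, Jund and Btg2 did not pass the test. The comparison asked which genes change transcription within 3 h of blocking the SWI/SNF ATPases. Of the 7 expressed members 3 were higher and 0 lower by edgeR's quasi-likelihood test at an adjusted p under 0.05, against 3.12% of the 8272 expressed genes higher and 4.63% lower. Klf6 and Bhlhe40 passed the expression filter only with the BRM014 libraries, where they were highest, counted in its mean. The count of 3 among 7 is thus not independent of the filter. In the fit over genes at least 3 times above background, 4 of 8 members were called higher, against 2.85% of the genes fitted. At an unadjusted p under 0.05, 1 was lower (Btg2), and DESeq2 called 0 lower. In all 7 the BRM014 and DMSO libraries did not overlap, 3 lying higher and 4 lower, where 25.1% and 23.4% of expressed genes did so. The median log2 fold change of the 7 was -0.05, beside 0.00504 for all expressed genes. With library sizes from the spike-in, edgeR called 2 of the 7 higher on plain ERCC sums, 1 with TMM over the 5 abundant ERCC RNAs and 0 with TMM over all 92 (2 at an unadjusted p under 0.05, and 0 of 8272 genes called), at log2 fold changes of 1.29 to 1.38 for Bhlhe40, 1.04 to 1.19 for Klf6 and 0.66 to 0.77 for Klf10. Of all 8272 expressed genes, 11 were higher on plain ERCC sums and 7 with the abundant ERCC RNAs.

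Bhlhe40 had 46.7 and 45.4 CPM with BRM014, against 13.5 and 22 CPM with DMSO. The BRM014 libraries lay close together and clear of both controls, which differed between themselves. Its log2 fold change was 1.37 ± 0.15 (SE, n = 2 against 2), with an adjusted p of 1.99e-06 by edgeR. Leaving out each of the 8 libraries in turn gave 1.04 to 1.76, and the call held each time. Its antisense neighbour 0610040F04Rik, which overlaps the start of the gene, had 3.20 and 3.83 CPM with BRM014 against 1.68 and 2.26 CPM with DMSO. In the fit over genes at least 3 times above background, its log2 fold change was 0.87 ± 0.22 (adjusted p 0.00884), beside 1.39 for Bhlhe40. Its mean count over the 8 libraries was 36.2, against 289 for Bhlhe40. Which strand was counted is not stated, so reads of overlapping genes on opposite strands cannot be told apart.

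Klf6 had 30.1 and 24.7 CPM with BRM014, against 11.4 and 14.1 CPM with DMSO, and Klf10 had 56.9 and 54.2 CPM with BRM014, against 28.4 and 38.8 CPM with DMSO. Both genes were higher in each BRM014 library than in either control. The log2 fold changes were 1.09 ± 0.14 (edgeR adjusted p 7.94e-06) for Klf6 and 0.72 ± 0.14 (0.00107) for Klf10, with ranges of 0.93 to 1.25 and of 0.50 to 0.96 over the 8 fits without 1 library, all called. Klf6 has been described as a tumour suppressor and wound-response factor, and Klf10 as an early target of TGF-beta.

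Of the 3 Jun genes, 1 was called. Jun was counted 94 and 112 times with BRM014, or 7.52 and 6.40 CPM, against 42 and 60 times with DMSO, or 2.61 and 3.39 CPM. The BRM014 libraries stood at 17.8 and 13.3 times background, against 5.01 and 7.07 times in the DMSO libraries. In the fit over 17664 genes, of which 2.85% were higher and 4.32% lower, the log2 fold change was 1.22 ± 0.18 (adjusted p 1.23e-05). Junb had 10.9 and 11.8 CPM with BRM014 against 12.5 and 14.5 CPM with DMSO, a log2 fold change of -0.25 ± 0.13 (adjusted p 0.288), and Jund had 39.3 and 37.3 CPM with BRM014 against 39.7 and 39.5 CPM with DMSO, a log2 fold change of -0.05 ± 0.12 (adjusted p 0.88). The means of Jund lay closer together than its BRM014 libraries did. Junos, on the strand opposite to Jun, was counted 20 and 36 times with BRM014 against 42 and 40 times with DMSO, so it lay lower where Jun lay higher. In the libraries labelled Chd4 shRNA Junos was counted 51 and 56 times (background 27.9 and 29.7) against 9 and 18 times in the scrambled, the same direction as Jun there.

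Ier2 and Btg2 stood a little lower with BRM014 and did not pass the test. Ier2 had 36.9 and 33.7 CPM with BRM014 against 40.2 and 39.5 CPM with DMSO, a log2 fold change of -0.18 ± 0.13 (adjusted p 0.465). Btg2 had 32.9 and 33.0 CPM with BRM014 against 38 and 48 CPM with DMSO, a log2 fold change of -0.39 ± 0.14 (adjusted p 0.0898). Without DMSO r1, the lower of its controls, the Btg2 value was -0.56 and its adjusted p 0.0137, the lowest of 0.0137 to 1.00 over its 21 alternatives. For Fos, a fit over all 54064 genes with a count, of which 0.636% were higher and 0.971% lower, gave a log2 fold change of 1.12 ± 0.31 (adjusted p 0.0452).

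**Figure D2:**
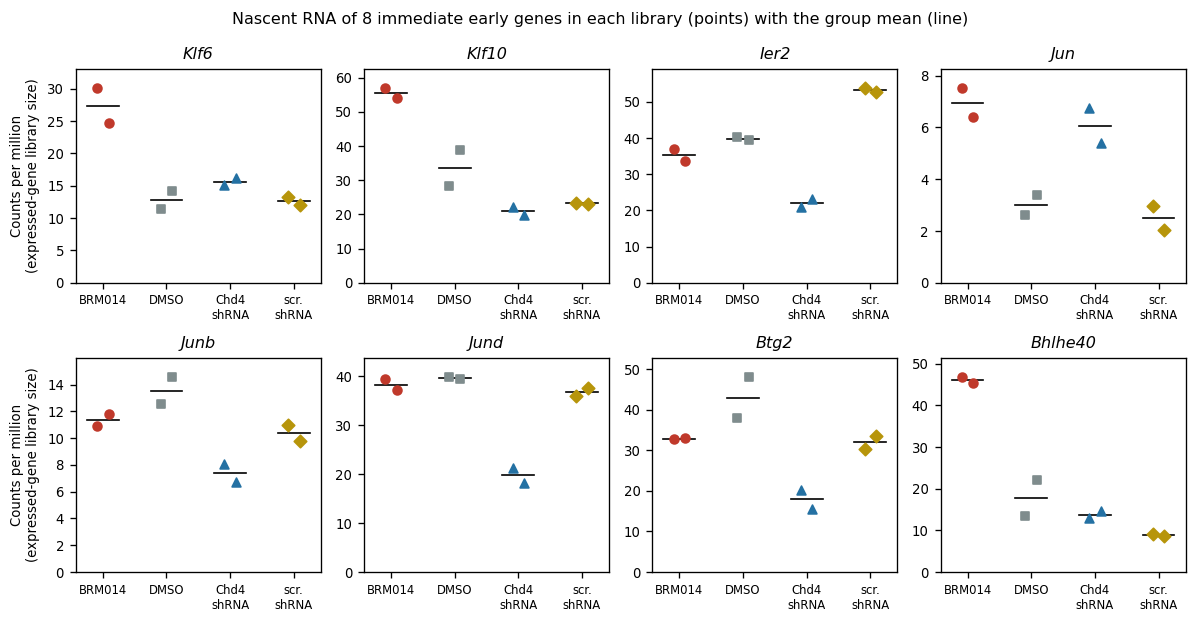
CPM of 8 immediate early genes in each library (points, the 2 libraries of a group side by side) with the group mean as a line, and BRM014, DMSO, Chd4 shRNA and scrambled shRNA from left to right. Klf6, Klf10, Jun and Bhlhe40 are higher with BRM014 than with DMSO, and Ier2, Jund and Btg2 are lower in the libraries labelled Chd4 shRNA than in the scrambled.

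Promoter sequences are shown for 4 members that were called in one of the comparisons and whose RefSeq start lies within 35 bases of the start in the count matrix, so that the elements near the start can be set beside the fold changes: Klf6 (chr13:5861239-5861538, plus strand) and Jun (chr4:95052173-95052472, minus strand), both higher with BRM014, and Junb (chr8:84978699-84978998, minus strand) and Btg2 (chr1:134079106-134079405, minus strand), both lower in the libraries labelled Chd4 shRNA. Each runs 5′ to 3′ from 250 bases before to 50 bases after the RefSeq start in GRCm38.p6. Capitals mark the cAMP response element TGACGTCA, its variant TGACATCA, the EGR site GCGNGGGCG, the E-box CACGTG, the TATA box TATAAA and the GC box GGGCGG, searched on both strands.
Klf6: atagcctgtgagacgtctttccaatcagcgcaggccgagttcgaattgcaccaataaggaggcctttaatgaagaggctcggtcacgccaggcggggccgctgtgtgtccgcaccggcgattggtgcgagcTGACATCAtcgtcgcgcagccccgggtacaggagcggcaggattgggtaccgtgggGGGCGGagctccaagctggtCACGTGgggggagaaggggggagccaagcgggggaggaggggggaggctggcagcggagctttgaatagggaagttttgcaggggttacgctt
Jun: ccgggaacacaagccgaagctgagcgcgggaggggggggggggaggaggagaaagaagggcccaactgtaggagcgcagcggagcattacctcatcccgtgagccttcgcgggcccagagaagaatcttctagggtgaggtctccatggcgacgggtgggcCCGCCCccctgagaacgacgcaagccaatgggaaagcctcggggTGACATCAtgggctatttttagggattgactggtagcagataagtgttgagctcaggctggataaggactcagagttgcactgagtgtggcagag
Junb: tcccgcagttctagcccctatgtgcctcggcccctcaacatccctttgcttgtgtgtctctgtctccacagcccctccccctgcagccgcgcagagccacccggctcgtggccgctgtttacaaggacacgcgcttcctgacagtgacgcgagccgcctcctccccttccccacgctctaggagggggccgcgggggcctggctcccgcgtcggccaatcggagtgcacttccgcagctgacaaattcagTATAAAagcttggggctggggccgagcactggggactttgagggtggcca
Btg2: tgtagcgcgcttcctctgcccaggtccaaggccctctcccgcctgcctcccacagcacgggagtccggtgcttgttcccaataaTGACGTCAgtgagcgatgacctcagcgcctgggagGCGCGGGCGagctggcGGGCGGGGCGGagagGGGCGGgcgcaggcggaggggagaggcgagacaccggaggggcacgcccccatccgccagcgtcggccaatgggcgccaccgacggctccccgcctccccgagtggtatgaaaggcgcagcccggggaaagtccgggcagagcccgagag

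The RefSeq table matched 6 of the 10 genes, which were these 4, Fos and Jund, and its start for Jund lies 1210 bases upstream of the counted one. GC content was 63.0% for Klf6, 60.0% for Jun, 65.3% for Junb, 72.0% for Btg2 and 58.7% for Fos, against a median of 52.7% over 32851 promoters. Klf6 and Jun both carry TGACATCA, at -119 and -45 from the start, which 3.62% of promoters hold. This motif was searched after the sequences had been read. Klf6 also has an E-box at -43, as 7.15% of promoters do. Btg2 holds the full TGACGTCA at -166, found in 1.79% of promoters, and an EGR site at -131, found in 5.55%. Its core TGACG, part of the full site, was present in Btg2, Junb and Fos and in 20.8% of promoters. GC boxes lie in Btg2, Fos, Jun and Klf6 and in 35.7% of promoters, and TATAAA in Fos and Junb and in 13.6%. In Junb the TATA box begins at the RefSeq start, and the start in the count matrix lies 30 bases further on. Exact matches to the AP-1 pattern TGANTCA, held by 7.81% of promoters, and to the CArG box bound by SRF, held by 1.63%, were not found in these windows. Sites for AP-1 or SRF that depart from these patterns are not covered by this search. Sequence more than 250 bases before the start was not searched, so sites further upstream are left open.

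Other signal-induced genes moved both ways with BRM014. Of 44 other immediate early genes listed, 14 were expressed. Of these, 3 were called higher and 3 lower, against 3.12% and 4.63% of all expressed genes, and the median over the 14 was 0.25 on the log2 scale. Gadd45g, a growth arrest and DNA damage gene, had 17.7 and 18.9 CPM with BRM014 against 5.03 and 5.43 CPM with DMSO (log2 fold change 1.80 ± 0.14, adjusted p 1.61e-08), and Gadd45a rose by 0.90 (3.67e-05). Gadd45g, too, passed the expression filter only with the BRM014 libraries counted in its mean. The kinase gene Sgk1 fell by 0.96 on the log2 scale (3.11e-05), and Klf4, a pluripotency factor of the same family as Klf6 and Klf10, fell by 0.64 (0.00357). Among 9 expressed KLF and SP genes other than the members, 1 was higher (Sp1, 0.55, adjusted p 0.0277) and 2 were lower, Klf4 and Klf2, with Klf2 at -0.43 (0.0476). DESeq2 called 0 higher and 1 lower of these 9.

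All 3 expressed relatives of Btg2 were higher with BRM014, whereas Btg2 itself stood at -0.39. Over all expressed genes, 3.12% were called higher and 4.63% lower with BRM014. Tob1 had 33.4 and 28.2 CPM with BRM014 against 12.5 and 21.0 CPM with DMSO, a log2 fold change of 0.87 ± 0.16 (adjusted p 0.000863). Btg3 rose by 0.56 (0.00968) and Btg1 by 0.46 (0.0425), and DESeq2 called 1 of the 3. Cry1, a clock repressor and the expressed partner of Bhlhe40 in the circadian list, rose by 0.70 (0.00141). Of the ERK, JNK and p38 kinase genes 0 of 13 were called by edgeR, with 1 lower at an unadjusted p under 0.05 and 0 called by DESeq2. At the shares over all expressed genes, 13 genes would give few calls, so this count says little about the kinases. Of 10 expressed genes of the integrated stress response 4 were higher, led by Ddit3 (1.29, adjusted p 1.50e-07), Herpud1 (0.80, 0.000145) and Hspa5 (0.87, 0.000261), and of 8 p53 targets 2 were higher, Ccng1 (0.53, 0.0125) and Trp53inp1 (0.49, 0.0474). The other AP-1 gene expressed, Jdp2 (-0.07), the CREB family factor Atf1 (0.19) and 3 heat shock genes were not called, with 1 heat shock gene higher at an unadjusted p under 0.05 and 0 called by DESeq2 among these 5.

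The libraries labelled Chd4 shRNA had less nascent RNA of Ier2, Jund, Btg2 and Junb relative to other expressed genes, and more of Bhlhe40, than the scrambled libraries. This comparison was made to ask which genes depend on the NuRD ATPase. The nascent RNA of Chd4 was not lower in these libraries, and it cannot tell whether Chd4 was depleted. Of the 7 expressed members 1 was called higher and 4 lower, against 19.4% (higher) and 20.5% (lower) over expressed genes. In the same 7 the groups did not overlap, 2 lying higher and 5 lower, against 35.8% and 37% of expressed genes. The median log2 fold change was -0.49 for the 7 and -0.00617 for all expressed genes. On the ERCC scales edgeR called 0 of the 7 lower (1 at an unadjusted p under 0.05, with the abundant ERCC RNAs), while the median expressed gene itself shifted by 0.59 with plain ERCC sums, by 0.49 with TMM over the 5 abundant ERCC RNAs and by 0.19 with TMM over all 92. Background made up 11.9% and 13.6% of these libraries, against 1.45% and 2.14% of the scrambled, and the part of this difference in the results was not tested beyond subtraction of background. With background subtracted, the values were -1.14 for Ier2 (edgeR adjusted p 4.01e-06), -0.79 for Jund (0.000334) and -0.86 for Btg2 (0.000663), where 1621 of 8272 genes were lower. Those of Junb, Bhlhe40, Jun, Klf6 and Klf10 are given below.

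Ier2 had 21.1 and 23.2 CPM in the libraries labelled Chd4 shRNA, against 53.8 and 52.9 CPM in the scrambled. Its replicates lay far closer to each other than the groups did. The log2 fold change was -1.27 ± 0.14 (adjusted p 3.59e-07), and it stayed between -1.34 and -1.18 when each library was left out. Per 1000 ERCC counts, Ier2 had 4.98 ± 1.85 counts in the libraries labelled Chd4 shRNA and 7.74 ± 0.222 in the scrambled (SD, n = 2 each).

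Jund had 21.3 and 18.3 CPM in the libraries labelled Chd4 shRNA, against 35.9 and 37.7 CPM in the scrambled, a log2 fold change of -0.90 ± 0.15 (adjusted p 4.47e-05). Both groups were tight and apart. Gm11175 lies inside Jund on the other strand. It had 13.2 and 11.7 CPM in the libraries labelled Chd4 shRNA against 21.7 and 22.8 CPM in the scrambled. In the fit over genes at least 3 times above background, its log2 fold change was -1.22 ± 0.16 (adjusted p 1.42e-07), beside -1.28 for Jund. Its mean count of 248 beside 421 for Jund means that a share of either count may belong to the other gene. Junb had 8.05 and 6.69 CPM in the libraries labelled Chd4 shRNA against 10.9 and 9.82 CPM in the scrambled, a log2 fold change of -0.49 ± 0.19 (adjusted p 0.0422). This last call was not made by DESeq2 and was made in 2 of 8 fits without 1 library, among which the values were -0.61 to -0.37. On plain ERCC sums the value was 0.08 (adjusted p 0.869), and with background subtracted it was -0.85 (adjusted p 0.0045), within 2.40e-11 to 0.966 over its 18 alternatives.

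Btg2 had 20.3 and 15.5 CPM in the libraries labelled Chd4 shRNA, against 30.3 and 33.7 CPM in the scrambled, a log2 fold change of -0.84 ± 0.17 (adjusted p 0.00035). The groups did not overlap, and the value ran between -1.02 and -0.66 without each library in turn, called in all 8. In the fit over 17664 genes at least 3 times above background, whose median value was 0.08, the values of Ier2, Jund, Btg2 and Junb were -1.65, -1.28, -1.22 and -0.88. The same fit, in which 22.8% of genes were lower, also called Klf10 lower, at -0.53 (adjusted p 0.00965), and placed Bhlhe40 at 0.25 (0.333), not called.

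Bhlhe40 had 12.9 and 14.7 CPM in the libraries labelled Chd4 shRNA, against 9.12 and 8.56 CPM in the scrambled, a log2 fold change of 0.64 ± 0.22 (adjusted p 0.0232). Its 80 and 90 counts were only 2.51 and 2.65 times background, against 80 and 75 counts at 12.8 and 8.69 times in the scrambled. With background subtracted the value was 0.31 (adjusted p 0.347, within 0.00104 to 0.80 over its 18 alternatives), and the call was lost in each of the 4 fits that left out one of these libraries. Its antisense neighbour 0610040F04Rik had 6.12 and 5.87 CPM in the libraries labelled Chd4 shRNA against 2.51 and 2.28 CPM in the scrambled. In the fit over genes at least 3 times above background, its log2 fold change was 0.94 ± 0.26 (adjusted p 0.00354), beside 0.25 for Bhlhe40. Jun was also close to background, with 42 and 33 reads in the libraries labelled Chd4 shRNA, or 1.94 and 1.44 times background, against 26 and 18 reads in the scrambled, at 6.16 and 3.08 times. Its log2 fold change was 0.89 ± 0.27 (adjusted p 0.0064), in a set where 22.3% of genes were higher, and 0.36 (0.511) with background subtracted, within 1.27e-05 to 0.573 over its 17 alternatives. With the library sizes of the expressed genes, the value of Jun was 1.27, where the median of the set was 0.46. Without each library in turn it ran between 0.65 and 1.12 and was called in 6 of 8 fits, the exceptions being those without Chd4 shRNA r1 (0.72) and without scrambled r3 (0.65).

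Klf6 and Klf10 did not pass the test among the 8272 expressed genes in this comparison. Klf6 had 15.1 and 16.1 CPM in the libraries labelled Chd4 shRNA against 13.3 and 12 CPM in the scrambled, a log2 fold change of 0.30 ± 0.17 (adjusted p 0.172). Klf10 had 22.2 and 19.9 CPM in the libraries labelled Chd4 shRNA against 23.5 and 23.1 CPM in the scrambled, a log2 fold change of -0.14 ± 0.17 (adjusted p 0.526). Before removal of background, Klf6 stood slightly above its controls and Klf10 slightly below. Klf6 was only 3.16 and 3.13 times background in the libraries labelled Chd4 shRNA, against 20.1 and 13.0 times in the scrambled. Less background, it had 2.36 and 2.50 CPM per kb there against 2.89 and 2.52. The fits with background subtracted gave 0.08 for Klf6 (edgeR adjusted p 0.791) and -0.22 for Klf10 (0.352).

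**Figure D3:**
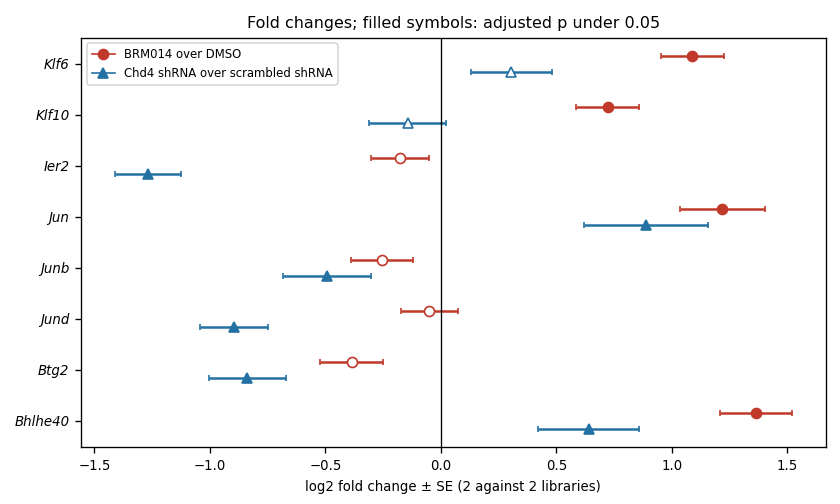
Log2 fold changes of 8 genes with their standard errors, for BRM014 over DMSO (circles) and Chd4 shRNA over scrambled shRNA (triangles), filled where the edgeR adjusted p was under 0.05. Jun comes from the fit over 17664 genes, and Ier2, Jund, Btg2 and Junb are filled for the shRNA and open for BRM014.

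The members lower in the libraries labelled Chd4 shRNA are short. Ier2, Jund, Junb and Btg2 have exon lengths up to 3000 bases, and Klf6, Klf10 and Bhlhe40 are longer. Over all expressed genes, the median log2 fold change was -0.0782 for the 4268 genes of 200 to 3000 bases and 0.0808 for the 3201 longer ones. Ier2, Jun and Jund have no intron in the gene model, their exon length being equal to their span. The median exon share of the span was 34.5% over expressed genes, and 28.9% of them had at least 99% exon.

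Of the 14 other immediate early genes expressed, 9 were called lower and 1 higher in the libraries labelled Chd4 shRNA, and their median was -0.62 on the log2 scale. Of all expressed genes, 20.5% were lower and 19.4% higher. The gene called higher, named here after its values were seen, was Gadd45g, with 10 and 9 reads in the libraries labelled Chd4 shRNA, where background alone would give 7.95 and 8.45, against 6 and 4 reads in the scrambled, so its level there was at background. Socs3, a feedback inhibitor of cytokine signalling, had 12.6 and 14.4 CPM in the libraries labelled Chd4 shRNA against 30.2 and 35.2 CPM in the scrambled (log2 fold change -1.28 ± 0.17, adjusted p 2.81e-06). Sgk1 fell by 1.16 (1.45e-06), the survival gene Mcl1 by 1.05 (4.26e-06) and the kinase gene Pim1 by 1.04 (3.33e-05). Klf2, which is in this list too, had 22.2 and 21.5 CPM in the libraries labelled Chd4 shRNA against 42.1 and 42.2 CPM in the scrambled. Among the 9 other KLF and SP genes 4 were lower, with Klf2 at -0.95 (4.25e-05), Klf4 at -0.55 (0.00452) and Klf9 at -0.49 (0.012), and 1 was higher, Klf13 at 0.43 (0.0274). DESeq2 called 0 higher and 3 lower of these 9. Klf13 had 201 and 226 reads in the libraries labelled Chd4 shRNA (background 51.0 and 54.3), against 252 and 197 in the scrambled (background 9.97 and 13.8). The embryonic stem cell markers summed to 1879 to 1948 CPM in the libraries labelled Chd4 shRNA against 3097 to 3260 CPM in the scrambled, and their part in these results was not tested.

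Over all expressed genes, 19.4% were called higher and 20.5% lower in this comparison, so a few calls in a short list are not particular to it. Of the kinase genes 2 of 13 were lower, Mapk3 (-0.65, adjusted p 0.00323), which encodes ERK1, and Map2k1 (-0.43, 0.0302), which encodes MEK1, and DESeq2 called 1. Atf1 was higher at 0.73 (0.00199). Its 108 and 96 reads in the libraries labelled Chd4 shRNA stood against a background of 20.74 and 22.05. In the scrambled it had 101 and 74 reads, against a background of 4.05 and 5.62. The 3 relatives of Btg2 were not called, with 0 also at an unadjusted p under 0.05 and by DESeq2, and stood at -0.17 (Tob1), -0.08 (Btg1) and 0.02 (Btg3). Jdp2 (0.46, adjusted p 0.0619) and Cry1 (0.29, 0.213) did not pass the test either. In the integrated stress response list 3 of 10 were higher and 2 lower, with Hspa5 at 1.16 (2.29e-06), Ddit3 at 0.97 (1.56e-05), Herpud1 at 0.94 (4.06e-05) and Asns at -1.26 (5.12e-07). Of the p53 targets 2 of 8 were higher (Mdm2 and Zmat3, both at 0.47) and 3 lower, led by Phlda3 (-0.996, 4.60e-05) and Ccng1 (-0.63, 0.00112). In the libraries labelled Chd4 shRNA, background alone would give 34.4 and 36.6 of the 244 and 296 reads of Mdm2. For Zmat3 it would give 77.5 and 82.4 of 467 and 475. In the scrambled it would give 6.73 and 9.33 of 296 and 258 for Mdm2, and 15.1 and 21 of 552 and 413 for Zmat3. None of the 3 heat shock genes was called, by edgeR, by DESeq2 or at an unadjusted p under 0.05.

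The effects of the inhibitor and of the shRNA differed for 5 of the 7 genes, by the contrast of both effects in the same fit, where 30.8% of expressed genes differed. Ier2 and Jund were not called with BRM014 and fell in the shRNA comparison, and the differences were 1.09 ± 0.19 (adjusted p 0.000143) and 0.85 ± 0.19 (0.00175) on the log2 scale. Klf10 and Klf6 were higher with BRM014 and not called for the shRNA, with differences of 0.87 ± 0.22 (0.00385) and 0.78 ± 0.22 (0.00932). Bhlhe40 was higher with BRM014, while its shRNA value was not called with background subtracted or in the fit over 17664 genes, and the effects differed by 0.73 ± 0.27 (0.043), a call that DESeq2 did not make. Btg2 (0.45 ± 0.22, adjusted p 0.117), Junb (0.24 ± 0.23, 0.473) and Jun (0.33 ± 0.33, 0.457) did not pass. The treatments also differ in duration, delivery and control, which cannot be told apart from the remodeller concerned.

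**Figure D4:**
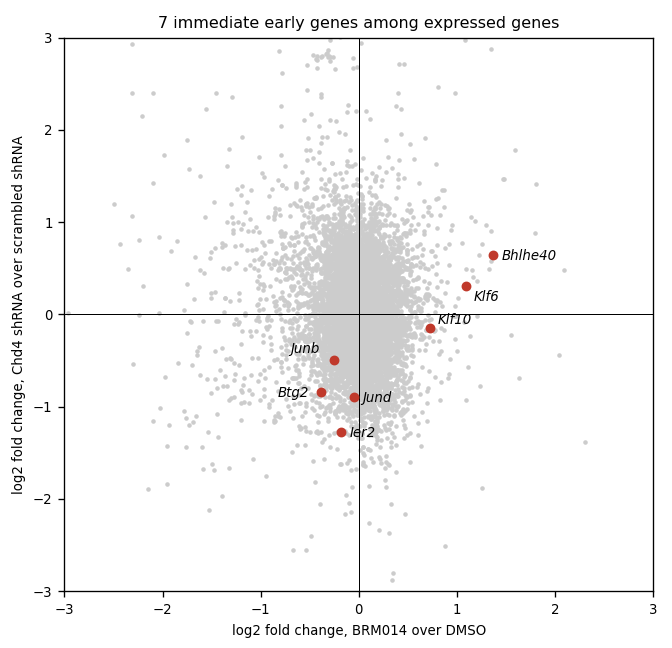
Log2 fold changes of the 7 expressed members (labelled points) with BRM014 over DMSO (horizontal) and Chd4 shRNA over scrambled shRNA (vertical), over all expressed genes in grey, of which 25 lie beyond the axes at 3. Bhlhe40, Klf6 and Klf10 lie to the right, and Ier2, Jund, Btg2 and Junb lie low and near the vertical line.

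Over the 8 libraries, the expressed genes most like a member were found by the mean absolute difference of log2(CPM + 1) after centring. Nearest to Klf6 were Ptp4a1, a phosphatase gene, at 0.0954 and Cdkn1b, which encodes the cell cycle inhibitor p27, at 0.11. With BRM014 their log2 fold changes were 1.01 and 0.69, and for the shRNA 0.18 and 0.22. Because these genes were picked for likeness over the same libraries, fold changes like those of Klf6 follow from the choice. Nearest to Klf10 were Tob1 at 0.116 and Btg1 at 0.118, both relatives of Btg2. For Bhlhe40 the nearest, Gm49494 at 0.255 and Gdap10 at 0.291, were less alike.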

How the data were processed

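The authors deposited read counts per gene on mm10. Per the submitters' processing notes, Trim Galore 0.6.4, STAR 2.7.1a, featureCounts and edgeR 3.32.1 were used, and the counted strand is not given in the sources used here. Of the shRNA columns, r4 (Chd4) and r3 (scrambled) fit no title and took their group from the column name.

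All 8 libraries entered one fit (edgeR 4.0.16, R 4.3.3, TMM scaling, quasi-likelihood F test) on the 8272 genes at least 10 times above background, taken as counts per kb over 5334.1 kb of receptor gene exon. Calls were made at a Benjamini-Hochberg adjusted p under 0.05 over all genes fitted, and CPM use the TMM-scaled totals of these genes. Alternatives were DESeq2 1.42.0, upper quartile and ERCC scaling, other filters, background subtraction, own libraries only, a replicate block and each library left out. The smallest two-sided p of an exact permutation test is 0.333 at 2 against 2. The members and gene lists were chosen with earlier results of these data known. Named besides the members were up to 4 genes per list with the smallest p, and the 2 genes nearest in pattern to each member called with BRM014. Figures were drawn with matplotlib 3.10.9.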

Additional observations from a re-analysis of the deposited data

Results flagged for a closer look

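The effects of BRM014 (over DMSO) and of the libraries labelled Chd4 shRNA (over scrambled shRNA) differed for 5 members by the contrast of both effects. On the log2 scale the difference, BRM014 effect minus shRNA effect, was 1.09 ± 0.19 for Ier2 (SE, edgeR adjusted p 0.000143), 0.87 ± 0.22 for Klf10 (0.00385), 0.85 ± 0.19 for Jund (0.00175), 0.78 ± 0.22 for Klf6 (0.00932) and 0.73 ± 0.27 for Bhlhe40 (0.043). Without each library in turn, Ier2 ranged over 0.99 to 1.16, Jund over 0.74 to 0.93 and Klf10 over 0.63 to 1.11, called in all 8 fits. The call held in 5 of 8 such fits for Klf6 and in 1 of 8 for Bhlhe40. On the ERCC scales none of these was called, and the median expressed gene differed by -0.59 (plain sums), -0.54 (abundant ERCC RNAs) and -0.05 (all ERCC RNAs). Of all 8272 expressed genes, 22, 9 and 1 had a difference called above 0 on these scales, and 1341, 691 and 23 below.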

How the results depend on the processing

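Of the 472 member values under an alternative, 382 kept their side of the threshold, 76 lost and 10 gained a call, and 4 changed sign where one of the fits made a call. Another 16, among the 382, changed sign without a call in either fit. With BRM014 3 members were higher, and 1 with TMM over abundant ERCC RNAs (where 7 of 8272 genes were higher), 0 with TMM over all ERCC RNAs (where 0 of 8272 genes were called), 1 among genes 30 times above background (4 members tested, 52 of 3726 genes higher) and 5 with no filter (10 tested, 344 of 54064 genes higher). The count lower with BRM014 ran over 0 to 1 as each library was left out. In the libraries labelled Chd4 shRNA 1 was higher, and 2 with plain ERCC sums, 0 with TMM over all ERCC RNAs, 0 at 30 times background, 0 with background subtracted, 0 at a log2 fold change of 1 or more in size, and 0 to 1 with a library left out. In that comparison 4 were lower, and 0 on each of the 3 ERCC scales, 7 with no filter and 1 at a log2 fold change of 1 or more in size. Over all genes, 62 of 8272 were lower with plain ERCC sums, 50 with the abundant ERCC RNAs and 6 with all ERCC RNAs. With no filter 11939 of 54064 were lower, and at a log2 fold change of 1 or more 282 of 8272. Higher there were 2836 of 8272 genes with plain ERCC sums, 57 with all ERCC RNAs and 1709 with background subtracted. Effects differed for 5 members, and for 0 on each ERCC scale, 2 at 30 times background, 8 with no filter, 1 at a log2 fold change of 1 or more in size, and 3 to 6 with a library left out (3 without BRM014 r1, Chd4 shRNA r1 or scrambled r1). Reversed for the shRNA were Klf6 (-1.19), Jun (-0.22) and Bhlhe40 (-0.85) with no filter, where the median of all genes was 0.56, and Junb (0.0789) on plain ERCC sums. The cause was not tested. The replicate block, for BRM014 and DMSO, left 3 higher and 0 lower, and so did the crossed pairing, added because the r1 deviations had a correlation of -0.24 across 8272 genes. No paired analysis was possible for the shRNA because its columns share only r1. A lone library left in a group is assumed to vary like the others. Low counts, as for Jun, Fos and Egr1, and for Klf6, Junb and Bhlhe40 in the libraries labelled Chd4 shRNA, limit what can be seen.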
